A study of Arabidopsis thaliana with 24 samples.

Results

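This account follows 4 transporter genes of Arabidopsis thaliana, AT3G56200, AT5G40670, CHX16 (AT1G64170) and AT1G59740, through rosettes and roots of plants grown with or without enough sulfur. They were picked by name with the sulfur responses of these same arrays already known, so their changes under deficiency are described here without a test. Each gene has 1 of the 28583 features on the array, found through the platform's probe-to-gene table, and none was lost, since no filter on low values was applied. AT3G56200 lies on chromosome 3, AT5G40670 on chromosome 5, and CHX16 and AT1G59740 on chromosome 1. The genotypes were wild-type plants of the reference strain Col-0, and the line rpt2-3a, which is mutated in a gene for an ATPase subunit of the proteasome. Both grew hydroponically in short days of 8 h light and 16 h dark for 5 weeks on complete medium, and were then kept on it (normal supply) or moved for 5 days to medium deficient in sulfur. Rosettes and roots were harvested separately and hybridised to Affymetrix arrays, which gave 8 groups of 3 biological replicates by organ, genotype and supply. All 24 arrays therefore share day length, age and the medium before the transfer, and the groups differ in organ, genotype and supply alone as far as the labels go.

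Plants take up sulfur as sulfate and build it into cysteine, from which methionine, glutathione and glucosinolates are made, and a shortage slows all of these and leaves other amino acids and nitrogen in excess. Transporters on the vacuole and other membranes move such pools between compartments and organs. AT3G56200 belongs to an amino acid transporter family whose AVT6 group moves amino acids across vacuolar and other inner membranes. AT5G40670 resembles human cystinosin, which exports cystine, the oxidised dimer of cysteine, from lysosomes. CHX16 is a member of the CHX family, which exchanges potassium and other monovalent cations for protons. AT1G59740 (NPF4.3) belongs to the NRT1/PTR family, whose members carry nitrate, peptides, glucosinolates or plant hormones.

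The organ markers matched the labels: the 4 photosynthesis genes RCA, PSAE-1, LHCB4.1 and ATPC1 averaged 8.51 to 11.3 in rosettes against 2.26 to 4.96 in roots, and EXPA7 of root hairs, the 1 of 4 listed root markers with a feature, averaged 2.18 against 7.66, with no array of one organ in the range of the other. No feature was named for RPT2A or RPT2B, so the mutated gene could not check the genotype labels. Arrays of a group correlated with r from 0.989 to 0.994. The median array value was 4.03 to 4.14 in rosettes and 4.47 to 4.55 in roots, which matters for the organ comparisons below. All levels are the deposited log2 expression values, and a change of 1 is a 2-fold change if their base is 2. Levels come from whole organs, where fewer cells of a type and less RNA per cell cannot be told apart.

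AT3G56200, the amino acid transporter gene, was higher under sulfur deficiency in both organs and both genotypes. In Col-0 rosettes the arrays read 7.58, 7.8 and 7.73 at normal supply and 8.86, 8.73 and 8.71 under deficiency, a 2.09-fold difference. In rpt2-3a rosettes they read 7.8, 7.28 and 7.74 against 8.23, 8.24 and 8.16 (1.52-fold). Every deficient rosette array lay above every normal one of its genotype, and the deficient Col-0 arrays lay above the deficient mutant arrays. Col-0 roots read 7.19, 7.11 and 7.41 at normal supply and 8.25, 8.53 and 8.47 under deficiency (2.27-fold). Roots of rpt2-3a read 7.49, 7.71 and 7.85 against 8.07, 8.32 and 8.15 (1.41-fold). The root groups did not overlap between supplies either, and at normal supply the mutant's roots lay above those of Col-0. In the order of group means, deficient Col-0 rosettes were highest at 8.77 ± 0.08 (SD, n = 3), then deficient Col-0 roots at 8.42 ± 0.15. The deficient mutant rosettes and roots followed with overlapping ranges, 0.03 apart. Normal Col-0 rosettes, normal mutant roots and normal mutant rosettes lay within 0.1 of each other, also with overlapping ranges, and normal Col-0 roots were lowest at 7.24 ± 0.16, with 1 mutant rosette array (7.28) inside their range.

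AT5G40670, the cystinosin-like gene, was also higher under deficiency in all 4 pairs of groups. Col-0 rosettes read 8.27, 8.24 and 8.25 at normal supply and 8.76, 8.68 and 8.63 under deficiency (1.35-fold). Those of rpt2-3a read 8.04, 7.88 and 8.2 against 8.51, 8.42 and 8.47 (1.34-fold). The supplies did not overlap in either genotype, and the step was nearly the same, at 0.44 in Col-0 and 0.43 in the mutant on the log2 scale. Col-0 roots read 7.97, 7.85 and 7.86 at normal supply and 9, 8.82 and 8.66 under deficiency (1.91-fold). Roots of rpt2-3a read 7.72, 7.68 and 7.77 against 8.32, 8.11 and 8.32 (1.44-fold). Again no supplies overlapped, and deficient Col-0 roots carried the highest group mean of this gene, 8.83 ± 0.17, with a range that overlapped that of deficient Col-0 rosettes (8.69 ± 0.07). Deficient mutant rosettes came next, and normal Col-0 rosettes and deficient mutant roots had the same mean of 8.25. The low end was formed by normal mutant rosettes (8.04 ± 0.16), normal Col-0 roots (7.89 ± 0.07), which overlapped them, and normal mutant roots (7.72 ± 0.05), which lay below both.

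CHX16, the cation/proton exchanger gene, was higher under deficiency in roots of both genotypes and in Col-0 rosettes, but not in rpt2-3a rosettes. In Col-0 roots the arrays read 5.84, 5.67 and 5.89 at normal supply and 7.23, 6.98 and 6.81 under deficiency, a 2.31-fold difference. In mutant roots they read 5.78, 5.76 and 5.96 against 6.45, 6.56 and 6.46 (1.58-fold). The normal roots of both genotypes shared one range, while all deficient Col-0 root arrays lay above all deficient mutant ones. Col-0 rosettes read 5.11, 5.29 and 5.23 at normal supply and 5.81, 6.1 and 5.76 under deficiency (1.6-fold). Rosettes of rpt2-3a read 5.93, 6.05 and 5.65 against 5.76, 5.73 and 5.63. The mutant rosettes at normal supply overlapped the range of deficient Col-0 rosettes and lay above all normal Col-0 ones, and the supplies of the mutant overlapped. Between the groups of deficient roots, which were highest, and the lowest, normal Col-0 rosettes (5.21 ± 0.09), the 5 other groups lay between 5.71 and 5.89 with neighbouring ranges that overlapped.

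AT1G59740, the NRT1/PTR family gene, went the other way: it was lower under deficiency in roots and near one low level in all rosettes. Col-0 roots read 8.32, 8.34 and 8.49 at normal supply and 7.41, 7.77 and 7.69 under deficiency, which is 1.69-fold lower. Roots of rpt2-3a read 8.05, 8.02 and 8.06 against 7.66, 7.68 and 7.71 (1.28-fold lower). The supplies did not overlap in either genotype, and under deficiency the genotypes shared one range, with means of 7.62 ± 0.19 and 7.68 ± 0.03. In rosettes Col-0 read 4.63, 5.12 and 5.19 at normal supply and 5.4, 5.17 and 5.03 under deficiency. Rosettes of rpt2-3a read 5.17, 5.25 and 5.13 against 5.27, 5.09 and 5.02. All 4 rosette groups overlapped with their neighbours in the order of means, from 4.98 to 5.2, and the lowest of these values was replicate 1 of normal Col-0.

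**Figure D1:**
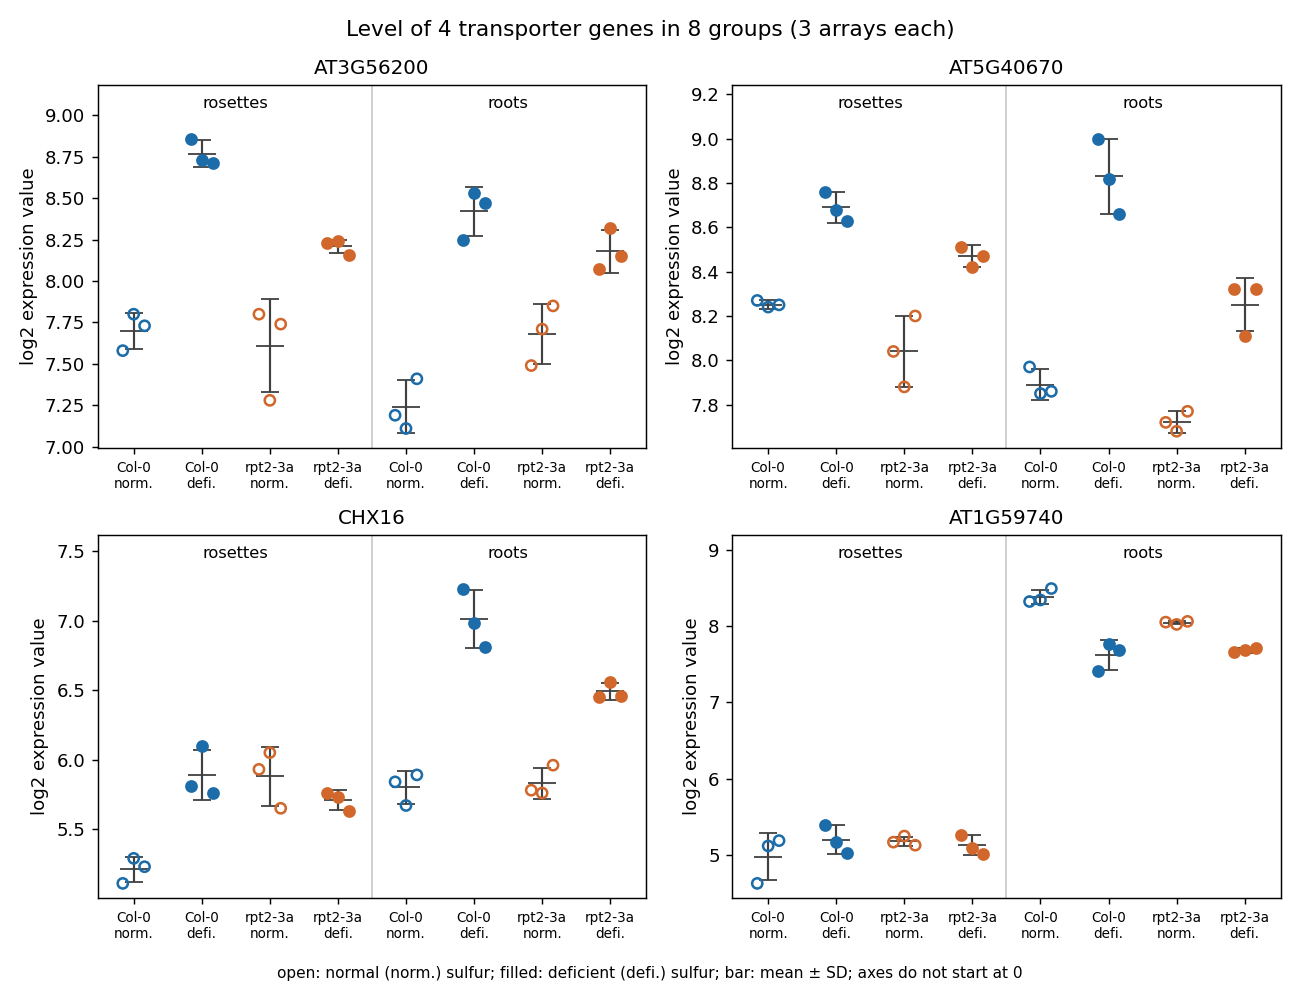
Log2 expression value (vertical axis) of each gene in the 8 groups (horizontal axis), with rosettes on the left and roots on the right of each panel; points are single arrays, open for normal and filled for deficient supply, and bars give the mean and SD of 3 arrays. AT3G56200 and AT5G40670 stand higher under deficiency in every pair of groups, CHX16 in every pair but the mutant rosettes (5.88 and 5.71), and AT1G59740 is lower in roots (8.38 and 7.62 in Col-0).

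Set side by side, the sulfur changes chose these genes and are given as a description, and since that choice fixed the counts of calls that follow, nothing is read from them. In limma fits across all features, with a Benjamini-Hochberg adjusted p under 0.05 as the threshold, 4 of the 4 genes were among those called in Col-0 roots, where 0.875% of all features were called. In Col-0 rosettes AT3G56200 was the 1 gene of the 4 among the 0.129% called, and in mutant rosettes again AT3G56200 among the 1.55% called. In mutant roots 0 of the 4 were among the 0.143% called. AT3G56200 and AT5G40670 are 2 genes whose deficient arrays lay above the normal ones in all 4 pairs of groups, which 0.091% of all features showed. In roots the log2 change of rpt2-3a came to 42.1% of that of Col-0 for AT3G56200 (0.5 ± 0.13 SE against 1.18 ± 0.13), 56.4% for AT5G40670 (0.53 ± 0.11 against 0.93 ± 0.11), 54.4% for CHX16 (0.66 ± 0.12 against 1.21 ± 0.12) and 47.4% for AT1G59740 (-0.36 ± 0.11 against -0.76 ± 0.11). All 4 root changes were thus nearer to 0 in the mutant. A choice of genes that leaned on the Col-0 root changes would favour this order by itself. The difference was therefore not tested, and nothing is read from it. The 4 rosette markers were all lower in deficient than in normal mutant roots, by -0.57 to -0.33 (median -0.39, beside -0.007 over all features), and 0 of the 4 passed. Their mean level per array ran from 3.36 to 4.26 in normal and from 3.05 to 3.43 in deficient mutant roots, against 3.34 to 3.71 and 3.32 to 4.04 in Col-0 roots, where their median change was 0.04. EXPA7 stood 0.29 higher in deficient mutant roots (adjusted p = 0.55), and the part of these markers in the mutant's changes was not tested. In rosettes the change of AT3G56200 was 0.46 smaller in the mutant and that of CHX16 0.85 smaller, while that of AT5G40670 differed by 0.01, and AT1G59740 stood at 0.22 in Col-0 and -0.06 in the mutant.

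**Figure D2:**
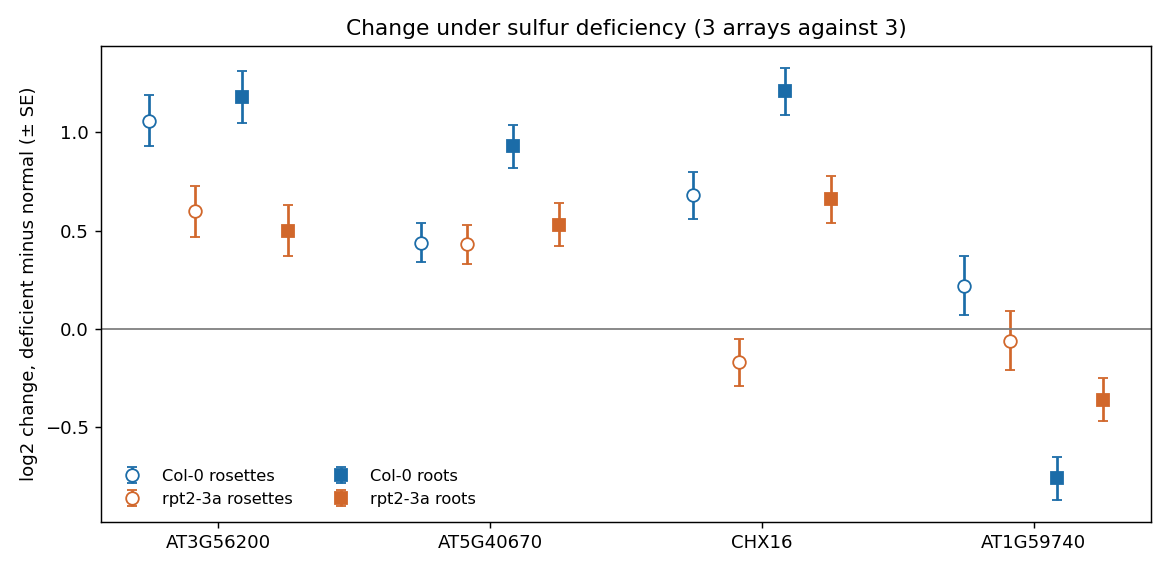
Log2 change of each gene under sulfur deficiency (vertical axis, deficient minus normal, 3 arrays against 3, bars are the SE of the limma fit); circles are rosettes, squares roots, blue Col-0 and orange rpt2-3a. In roots every mutant change is nearer to 0 than that of Col-0, as for CHX16 with 0.66 and 1.21, an order that the choice of genes by their responses can favour. AT1G59740 is the gene with negative changes in roots.

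Whether the mutant differed from Col-0 was tested on the mean of both supplies, a comparison that is balanced over supply. A sulfur change shared by the genotypes drops out of it, but one that differs between them enters it. It is thus not free of the responses that chose the genes. For AT5G40670 in roots the sulfur changes differed by -0.41, rpt2-3a minus Col-0. AT5G40670 was lower in mutant roots, at 7.99 against 8.36 (log2 difference -0.37 ± 0.08 SE, limma adjusted p = 0.021). It was the 1 of the 4 genes that passed there, beside 2.41% of all features. In rosettes AT5G40670 stood at 8.25 in the mutant and 8.47 in Col-0 (-0.22 ± 0.07, adjusted p = 0.14), which passed with trended robust moderation alone (adjusted p = 0.044). Its arrays were lower in rpt2-3a without overlap in each of the 4 pairs of organ and supply, from -0.17 in normal roots to -0.58 in deficient roots, a pattern shown by 0.101% of all features. The sulfur changes that chose the genes rest on these same arrays, so the pattern is a description and backs no test. Leaving out 1 array ended the root call in 3 of 12 fits, namely replicate 1 of normal Col-0 (adjusted p = 0.056), replicate 2 of normal rpt2-3a (adjusted p = 0.053) and replicate 2 of deficient rpt2-3a (adjusted p = 0.059).

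In rosettes 0 of the 4 genes passed for genotype, beside 2.42% of all features by limma and 14.8% at an unadjusted p under 0.05. AT3G56200 came nearest, with a difference of -0.33 ± 0.09 (adjusted p = 0.091, and from 0.026 to 0.18 over the alternatives). It passed when dim features were left out (adjusted p = 0.047), with trended robust moderation (adjusted p = 0.026) and with all 24 arrays in one fit (adjusted p = 0.047). The difference lay under deficiency, at -0.56, with -0.1 at normal supply. In roots AT3G56200 differed by 0.11 ± 0.09 (95% interval -0.09 to 0.3), higher at normal supply (0.45) and lower under deficiency (-0.24). AT1G59740 differed by 0.06 ± 0.1 in rosettes (95% interval -0.16 to 0.29) and -0.14 ± 0.07 in roots (95% interval -0.3 to 0.02). By supply, its difference was -0.34 in normal and 0.06 in deficient roots, and 0.2 in normal and -0.07 in deficient rosettes.

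CHX16 was the 1 of the 4 genes that passed for a genotype effect differing between the organs, a call that most fits without 1 array lost. It was 0.24 ± 0.09 higher in mutant rosettes (adjusted p = 0.2) and -0.24 ± 0.08 in mutant roots (adjusted p = 0.19), neither of which passed alone. The difference of these effects, roots minus rosettes, was -0.48 ± 0.12 by limma over 24 arrays (adjusted p = 0.036), and 1 of the 4 genes passed, beside 2.03% of all features. The rosette part came from normal supply (0.67, no overlap) and the root part from deficiency (-0.52, no overlap), while deficient rosettes differed by -0.18 and normal roots by 0.03. The sulfur changes of CHX16 differed between the genotypes, rpt2-3a minus Col-0, by -0.85 in rosettes and -0.55 in roots. Such differences enter this comparison, so it is not free of the responses that chose the genes. Leaving out 1 array ended the call in 16 of 24 fits, with adjusted p from 0.051 to 0.072 in those. AT3G56200 had the opposite sign, 0.43 ± 0.13, and did not pass (adjusted p = 0.091, or 0.041 with trended robust moderation), nor did AT5G40670 (-0.16 ± 0.1, adjusted p = 0.58) or AT1G59740 (-0.21 ± 0.13, adjusted p = 0.57). The 8 other CHX genes measured ranged from -0.6 to 0.22 and none passed. The lowest was CHX19 (-0.6 ± 0.21, limma adjusted p = 0.17), with the same sign as CHX16. CHX19 was dim, at 3.34 in Col-0 and 3.76 in mutant rosettes, below the rosette array medians of 4.03 to 4.14.

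The organs were compared on the mean of both supplies as well, where most features differ: 71.2% of all features were called in Col-0 and 69.6% in rpt2-3a, so a call by itself says little. AT1G59740 was the root gene among the 4, 7.53-fold higher in roots of Col-0 (8 against 5.09, log2 difference 2.91 ± 0.09, limma adjusted p = 1.1e-18) and 6.54-fold in rpt2-3a (7.86 against 5.15, adjusted p = 4.7e-18). CHX16 was 1.81-fold higher in Col-0 roots (6.4 against 5.55, adjusted p = 4.4e-09). In rpt2-3a CHX16 was 1.29-fold higher in roots (6.16 against 5.79, adjusted p = 0.00051), but the difference turned to -0.05 when each array was centred on its median and did not pass there (adjusted p = 0.58) or after quantile normalization (0.08, adjusted p = 0.45). The array medians themselves were 0.41 higher in Col-0 roots and 0.42 higher in mutant roots than in rosettes, and centring moved the median difference of all features from 0.207 to -0.198 in Col-0 and from 0.183 to -0.24 in rpt2-3a. The difference of CHX16 in Col-0 was 0.85 as deposited and 0.45 after centring, and passed both ways. The higher and lower calls over all features were 13910 and 6438 in Col-0 and became 8558 and 13658 after centring, and in rpt2-3a 13427 and 6454 became 8146 and 14402. After quantile normalization they were 10546 and 9280 in Col-0 and 10152 and 9373 in rpt2-3a.

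AT3G56200 was lower in Col-0 roots than rosettes, at 7.83 against 8.23 (-0.41 ± 0.09, adjusted p = 0.00037), and stayed lower under every alternative run, from -0.81 to -0.37. In rpt2-3a its organs stood at 7.93 and 7.91 (0.02 ± 0.09, 95% interval -0.17 to 0.21), and centring each array gave -0.4 with an adjusted p of 0.00035. AT5G40670 was lower in roots of rpt2-3a, at 7.99 against 8.25 (-0.27 ± 0.07, adjusted p = 0.0016), and at -0.69 after centring. In Col-0 it stood at 8.36 and 8.47 (-0.11 ± 0.07, adjusted p = 0.16), and centring gave -0.52 (adjusted p = 6.1e-07).

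**Figure D3:**
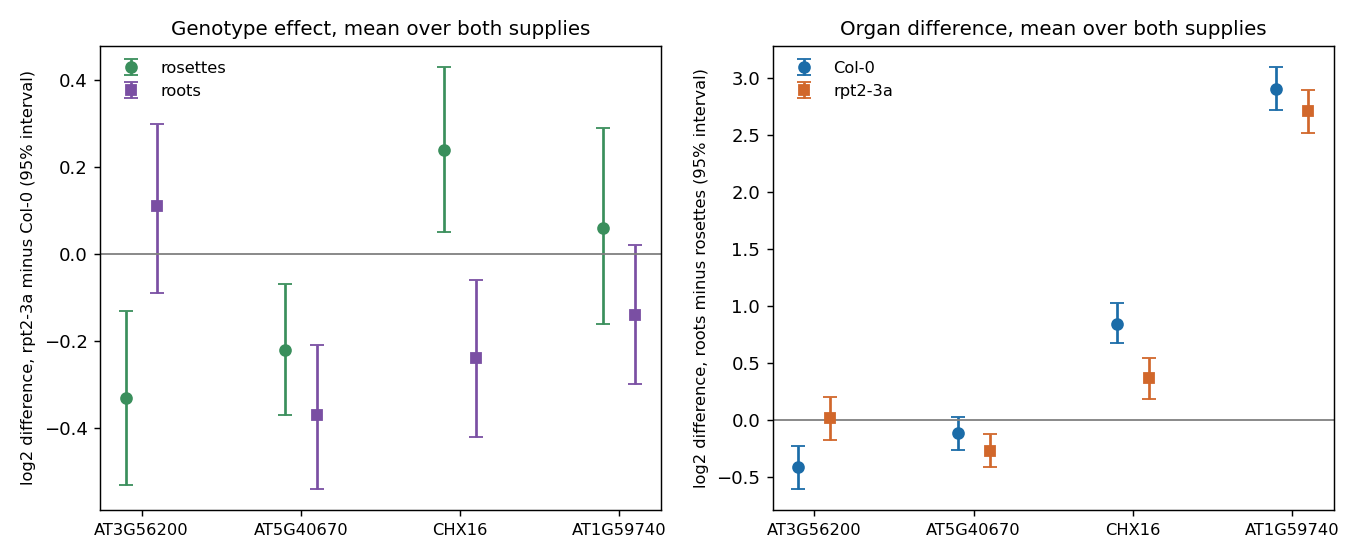
Log2 differences (vertical axes) of the 4 genes (horizontal axes) averaged over both supplies, with 95% intervals from the limma fits: rpt2-3a minus Col-0 in each organ on the left, roots minus rosettes in each genotype on the right. CHX16 lies at 0.24 in rosettes and -0.24 in roots for genotype, and AT1G59740 lies at 2.91 and 2.71 for organ.

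Related transporters were listed by family and locus, with earlier results of these data known, to show what the families of these genes did. The lists held 133 other genes, of which 51 had a feature with exactly 1 gene. In Col-0 roots 1 of the 51 rose and 0 fell under deficiency, where 0.875% of all features were called, and their median change was -0.02 beside 0.007 over all features. The gene that rose was GTR1 (NPF2.10), which imports glucosinolates, at 6.37 and 6.99 (0.63 ± 0.13, adjusted p = 0.0495 by limma), and 10 of 13 alternatives ended that call, with adjusted p from 0.0069 to 0.19 over all 13. The 4 other AVT6 loci, relatives of AT3G56200, did not pass, with changes from -0.13 to 0.75. The highest was AT5G38820, whose SE was 0.5 (adjusted p = 0.72) and whose change came to 0.22 without replicate 3 and 1.34 without replicate 2 of deficient Col-0 roots, and AT3G30390 stood at 0.02. The 8 other CHX genes measured, of 27 listed, ranged from -0.25 to 0.06 and none passed. Their levels in Col-0 roots ran from 1.56 (CHX6A) to 4.19 (CHX19), below the root array medians of 4.47 to 4.55. CHX16 stood at 5.8 and 7.01 there. Changes of such dim features cannot show whether the CHX family responded. The 36 other NRT1/PTR genes ranged from -0.46 to 0.66. AT3G56200 (1.18), CHX16 (1.21) and AT1G59740 (-0.76) lay outside the ranges of change of their listed relatives, and were picked for their changes.

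In mutant roots 0 of the 51 passed by limma, where 0.143% of all features were called, and the list's median change was 0.02 beside -0.007. With so few calls over all features, this count cannot show that the listed genes did not respond. Over all features 8.74% had an unadjusted p under 0.05 there. Listed genes met that looser threshold in both directions, such as AT3G45660 (0.51 ± 0.15) and AT3G25280 (-0.39 ± 0.16). In Col-0 rosettes 0 of the 51 passed too, where 0.129% of all features were called, so the same limit holds. Over all features 8.45% had an unadjusted p under 0.05 there. AT3G21670 of the NRT1/PTR family stood at -0.54 ± 0.14 (adjusted p = 0.18). In mutant rosettes 1 of the 51 fell, which is near the 1.55% called over all features: NAXT1, a nitrate efflux transporter of the NRT1/PTR family, went from 5.82 to 5.07 (-0.76 ± 0.1, adjusted p = 0.0036), and the call held in all 13 alternatives. In Col-0 rosettes NAXT1 stood at 5.58 and 5.23 (-0.35 ± 0.1, adjusted p = 0.29), and the difference between the genotypes was not tested. For genotype, 2 of the 51 were lower in mutant rosettes, where 2.42% of all features were called, so the count is near the background: AT3G21670 (-0.61 ± 0.1, adjusted p = 0.005) and AT2G40460 (-0.38 ± 0.08, adjusted p = 0.023), both of the NRT1/PTR family, the second losing its call in 6 of 12 fits without 1 array. In mutant roots, where 2.41% of all features were called, 2 of the 51 passed: AT3G45660 was higher (0.62 ± 0.11, adjusted p = 0.0075) and AT5G46040 lower (-0.45 ± 0.08, adjusted p = 0.0087). NAXT1 and AT3G45660 sit in a run of neighbouring, similar genes, and cross-hybridisation between them was not tested. None of the 12 sulfate transporters or 7 thiol and glutathione transporters listed had a feature with exactly 1 gene, and they are not analysed here.

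**Figure D4:**
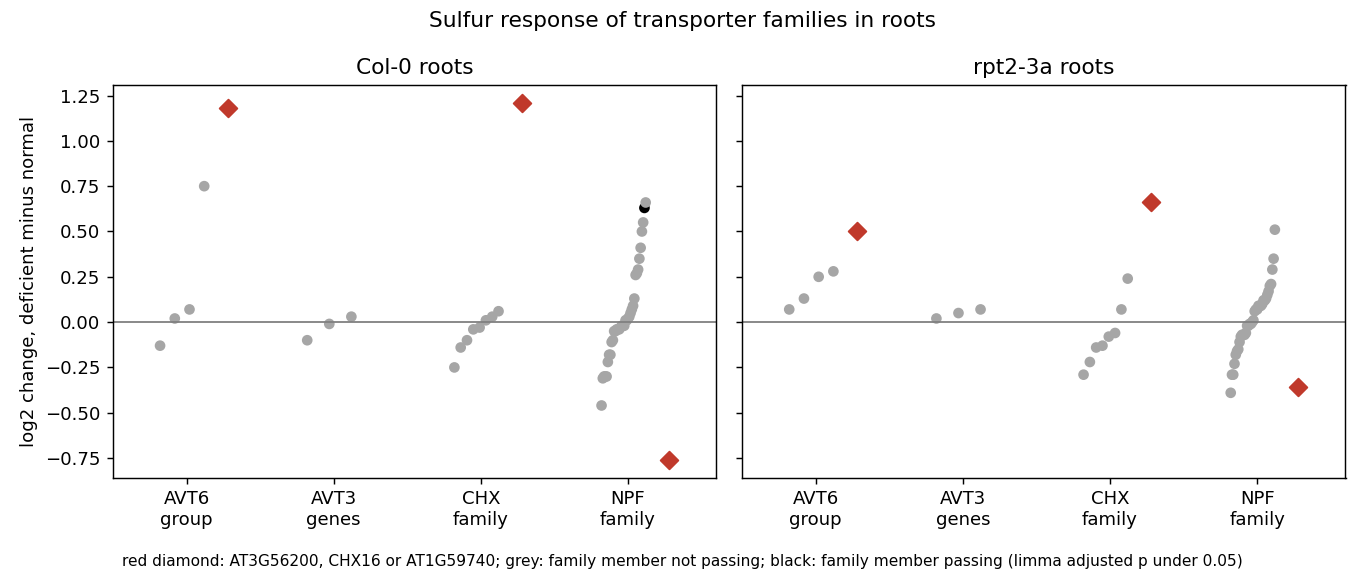
Log2 change under sulfur deficiency (vertical axis) of listed transporters by family (horizontal axis) in Col-0 roots on the left and rpt2-3a roots on the right; grey points did not pass, the black point is GTR1, which did, and red diamonds are the genes described here, placed beside their families. Family members lie between -0.46 and 0.75 in Col-0 roots, with AT3G56200 at 1.18, CHX16 at 1.21 and AT1G59740 at -0.76. The other CHX genes were dim there, with levels from 1.56 to 4.19.

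For each gene, the 3 genes with the most similar pattern were taken by Pearson r over the 24 arrays, after subtracting the mean of the organ, as a description. These arrays share the supply and genotype groups, so any gene that responds to supply scores high. AT3G56200 was most like AT5G05600 (r = 0.818), GTR1 (r = 0.817) and AT2G39420 (r = 0.805). AT5G05600 had sulfur changes of 0.72 in Col-0 rosettes, 0.92 in mutant rosettes, 0.85 in Col-0 roots and 0.65 in mutant roots. AT5G40670 was most like GTR1 (r = 0.842), the methionine sulfoxide reductase gene MSRB5 (r = 0.84) and the beta-glucosidase gene BGLU28 (r = 0.836), a known marker of sulfur deficiency. GTR1, which appeared beside both AT3G56200 and AT5G40670, had sulfur changes of 0.33 and 0.36 in Col-0 and mutant rosettes and 0.63 and 0.17 in their roots. CHX16 was most like AT4G37220 (r = 0.868), AT1G22065 (r = 0.868) and AT4G31330 (r = 0.854). AT4G37220 changed by 2.73 in Col-0 roots and 1.4 in mutant roots, but by 0.12 and -0.17 in their rosettes, so it lacked the rosette step of CHX16 (0.68 in Col-0). AT1G59740 was most like AT3G10020 (r = 0.807), AT1G34050 (r = 0.797) and AT2G24681 (r = 0.789), which were lower in deficient Col-0 roots by -0.37, -0.7 and -0.32.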

How the data were processed

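The data are the series' deposited value table, with 28583 features on 24 arrays. The deposited values were read as log2 expression values. Per the submitters' processing notes they came from Transcriptome Analysis Console. No source used here gives its version, normalization, log base or genome build, so scale and centring remain unknown. Per the labels' protocols, RNA was isolated with TRI Reagent, treated with DNase and labelled with an Affymetrix WT kit. The 3 arrays per group limit the precision. In the platform annotation 16746 features had exactly 1 gene, 758 several and 11079 none. Of the first, 16601 were matched to RefSeq (TAIR10.1) for symbols.

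The genes and lists were chosen with earlier results of these data known. Tests used lmFit, contrasts.fit and eBayes of limma (version 3.58.1, R 4.3.3) on all features, with 1 mean per group. Genotype and sulfur comparisons used the 12 arrays of an organ (8 residual degrees of freedom), and organ comparisons and the difference of genotype effects used all 24 (16). Adjustment was Benjamini-Hochberg over all features of a comparison, two-sided. SE is that of the fit. Listed genes were represented by their brightest feature. Those named are, with 3 exceptions, the ones that passed, at most 4 by p per list and comparison, or else the smallest p. The exceptions are AT3G30390 in Col-0 roots, AT3G25280 in mutant roots and NAXT1 in Col-0 rosettes, named with their values known. The script was checked on simulated data. Alternatives were other scalings, a filter on dim features (no group mean of 4 or more), other moderation, array weights, the replicate number as a block, other arrays in the fit and each array left out.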

Additional observations from a re-analysis of the deposited data

Results flagged for a closer look

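CHX16 was set apart because its genotype effect, averaged over supply, differed between organs: the effect in roots minus that in rosettes was -0.48 ± 0.12 (limma adjusted p = 0.036), from 0.24 in rosettes and -0.24 in roots. Sulfur changes that differ between the genotypes enter this comparison, and CHX16 was picked with its sulfur changes known. CHX16 was lower in 3 of 3 mutant arrays than in all Col-0 arrays of deficient roots and higher in 3 of 3 in normal rosettes. In deficient rosettes and normal roots the genotypes overlapped. The share of all features with such a split was not counted. The split comes from the arrays that gave the call, so it is a description and backs no test. The call was lost in 16 of the 24 fits that left out 1 array and kept under the 6 other alternatives. No group had more than 3 arrays, so single outlying arrays were not looked for.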

How the results depend on the processing

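The sulfur changes of the 4 genes stayed within the replicate spread under all 208 alternatives, a wide bound with 3 arrays per group. Without 1 array, AT1G59740 in Col-0 rosettes (0.22) ran from 0.05 to 0.33. AT3G56200 in rpt2-3a rosettes (0.6) ran from 0.44 to 0.7. In the tested comparisons of the 4 genes 388 of 416 alternatives left the call as it was, 21 ended one and 7 made one. In 8 of the 416 the value changed sign or reached 0, and the cause was not tested. The genotype difference of AT1G59740 in rosettes (0.06) ran from -0.02 to 0.12 without 1 array. For roots against rosettes in rpt2-3a, AT3G56200 (0.02) came to -0.4 with each array centred, -0.11 after quantile normalization, 0 with array weights and -0.06 to 0.07 without 1 array, and CHX16 came to -0.05 with each array centred. The listed AT5G65990 changed by -0.1 in Col-0 roots under deficiency, and by -0.25 to 0.01 without 1 array.

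Counts over all features moved more. For genotype in rosettes, 692 features were called, 1091 with all 24 arrays in one fit and 434 to 806 without 1 array. In roots, 688 were called, and 360 to 651 without 1 array. Under deficiency in Col-0 rosettes, 37 were called, 101 without dim features, 130 with trended robust moderation, 70 with the replicate block, 5 with only the 2 groups compared and 5 to 39 without 1 array. In rpt2-3a rosettes, 444 were called, 724 without dim features, 724 with trended robust moderation and 179 to 611 without 1 array. In Col-0 roots, 250 were called, 383 with trended robust moderation, 162 with only the 2 groups and 139 to 175 without 1 array. In rpt2-3a roots, 41 were called, 102 without dim features, 154 with trended robust moderation, 84 with array weights, 11 with only the 2 groups and 10 to 31 without 1 array.

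Deviations from the group means correlated from -0.17 to 0.24 (median 0.01) between arrays of the same replicate number and from -0.21 to 0.14 between other arrays. Of the 24 arrays, 10 were closest to their own number. The number was therefore not used as a pairing, though these values cannot show that none existed. With the number as a block, 669 and 653 features were called for genotype in rosettes and roots. For the sulfur change the block gave 70 calls in Col-0 rosettes, 459 in rpt2-3a rosettes, 209 in Col-0 roots and 60 in rpt2-3a roots. Without it these were 37, 444, 250 and 41.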
